A study of Mus musculus with 11 samples.

Results

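Renal CD4+ T cells from mice labelled CD4IKK1 were compared with those of CD4cre mice on day 2 after ischemia-reperfusion injury (IRI), in 8 of the 11 RNA sequencing libraries of the series. The libraries were chosen by genotype label alone, 3 labelled CD4cre and 5 labelled IKK1 knockout. All mice were on a C57BL/6 background, were male and 8 to 12 weeks old, and had both renal pedicles clamped for 45 min before reperfusion. The CD4cre controls express Cre recombinase under the CD4 promoter and carry no floxed allele that the labels name. The CD4IKK1 mice carry the same Cre together with a floxed IKK1 gene (Chuk), so that Cre expression is shared by both groups. The CD4 promoter is also active in thymocytes before the CD4 and CD8 lineages part, hence deletion is not limited to CD4+ cells. Per the study, cells were enriched with a CD4+ T cell isolation kit and then sorted by FACS, and the RNA was amplified with a SMARTer kit. Each library is a biological replicate in the labels, and the p-values measure the spread between these libraries.

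IKK1, also named IKKα, is a kinase of the NFκB pathway. In the canonical branch, receptor signals activate a complex of IKK1, IKK2 and NEMO, which marks the inhibitor IκBα for degradation and frees RelA and c-Rel. In the non-canonical branch, NIK activates IKK1, which leads to processing of the Nfkb2 product p100 and to nuclear RelB. CD4+ T cells carry an αβ T cell receptor (TCR) with CD3 chains and differentiate into helper cells, of which Th1 cells make interferon-γ, Th17 cells make IL-17 and regulatory T cells depend on Foxp3. IRI brings such cells into the kidney, where they take part in the inflammatory response.

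The estimated counts summed to between 19030516 and 25737046 in the CD4cre libraries and between 16040843 and 21162528 in the libraries labelled CD4IKK1. CPM values (counts scaled to the library size, with TMM factors) rest on these totals, at which 3 counts equal 0.119 to 0.197 CPM. Summed over the TCR constant-region genes (Trac, Trbc1, Trbc2), there were 35820, 22741 and 12558 counts in CD4cre replicates 1 to 3 and 41, 868, 11413, 5277 and 5644 counts in CD4IKK1 replicates 1 to 5. These correspond to 1417, 1137 and 641 CPM against 2.70, 46.6, 662, 269 and 261 CPM. CD4IKK1 replicate 3 thus lay inside the range of the controls, whereas replicates 1 and 2 held hardly any TCR transcript. The difference in mean log2 CPM was −3.49 (p = 0.107 by a two-sided exact permutation test of 56 assignments, whose smallest possible p is 0.0179), and it was −1.49 without CD4IKK1 replicates 1 and 2. In bulk samples fewer T cells and less RNA per T cell cannot be told apart. Chuk (chromosome 19, 44061769 to 44095935 of GRCm39) had 432, 683 and 325 counts in CD4cre mice and 258, 406, 394, 307 and 588 counts in mice labelled CD4IKK1 (log2 fold change −0.11, SE 0.31, FDR 0.921). Its transcript level did not separate the groups, the counts are summed over the gene, and deleted exons were not analysed here, so that groups are named by their labels throughout.

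The sorted population was checked against its markers. Cd4 was detected in each library, at 80.7, 52.5 and 58.4 CPM in CD4cre and 2.11, 7.41, 70.7, 19.3 and 24.8 CPM in CD4IKK1, so that CD4IKK1 replicates 1 and 2 were the lowest in this defining marker too. Cd8a, a marker of CD8+ T cells, did not exceed 1.55 CPM. Other cells' transcripts were abundant, however. The 26 neuronal markers summed to 6598, 7335 and 7875 CPM in CD4cre and to 9746, 9539.5, 8812, 8468 and 8892 CPM in the libraries labelled CD4IKK1, each of the latter above each control. Macrophage and monocyte markers, 22 in the list, summed to 4065, 1262 and 2232 CPM and 797, 824, 797, 1079 and 918 CPM, and erythroid markers to 2141, 2754 and 2337 CPM and 698, 641, 548, 1654 and 1018 CPM. Each library labelled CD4IKK1 was below each control for both. Of the kidney tubule markers 12 of 13 had a lower mean and 5 (38.5%) were lower without overlap (median log2 fold change −1.69, or −1.25 without CD4IKK1 replicates 1 and 2), although their sums overlapped, at 218, 359 and 202 CPM in CD4cre and 195, 195, 213, 214 and 199 CPM in CD4IKK1. The part of these cells in the results was not tested.

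To ask what differs with the IKK1 genotype label across the transcriptome, edgeR was run on 15653 genes (robust quasi-likelihood). At an FDR under 0.05 and a fold above 2 it called 0% of them lower and 0% higher. The smallest FDR was 0.0543, 2592 genes had an unadjusted p under 0.05, and DESeq2 on the same libraries called 501 genes lower (4.02% of 12462 with an adjusted p) and 46 higher (0.369%). Genes are therefore described by their levels and by whether the groups overlap, and a difference is called lower or higher without overlap only where no library of one group enters the range of the other. In CPM, 1311 genes (8.38%) were lower in every library labelled CD4IKK1 than in every CD4cre library, and 954 (6.09%) were higher. The median log2 fold change of all genes was 0.02. Each value was also taken per count of Trac, Trbc1 and Trbc2 of its own library. On that scale 4 genes (0.0256%) were lower without overlap and 5347 (34.2%) higher. In CD4IKK1 replicate 1, with 41 TCR counts, a gene with 0 counts already stands at 12.2 per 1000 TCR counts through the prior count of 0.5, so that a lower ratio can hardly be seen there. Without replicates 1 and 2, 121 genes (0.773%) were lower and 5419 (34.6%) higher, and the median of all genes was 1.48 on the log2 scale. Division by the TCR counts shifts all genes of a library by the same amount. A gene family with a TCR-relative median near 0 was lower in CPM by about as much as the TCR transcripts, one below 0 by more, and one near 1.48 was like the median gene. TCR-relative differences are given as log2 values without CD4IKK1 replicates 1 and 2, with no test. Where a log2 fold change in CPM moved by more than 0.58 (1.5-fold) when these replicates were left out, the value without them is given beside it.

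**Figure D1:**
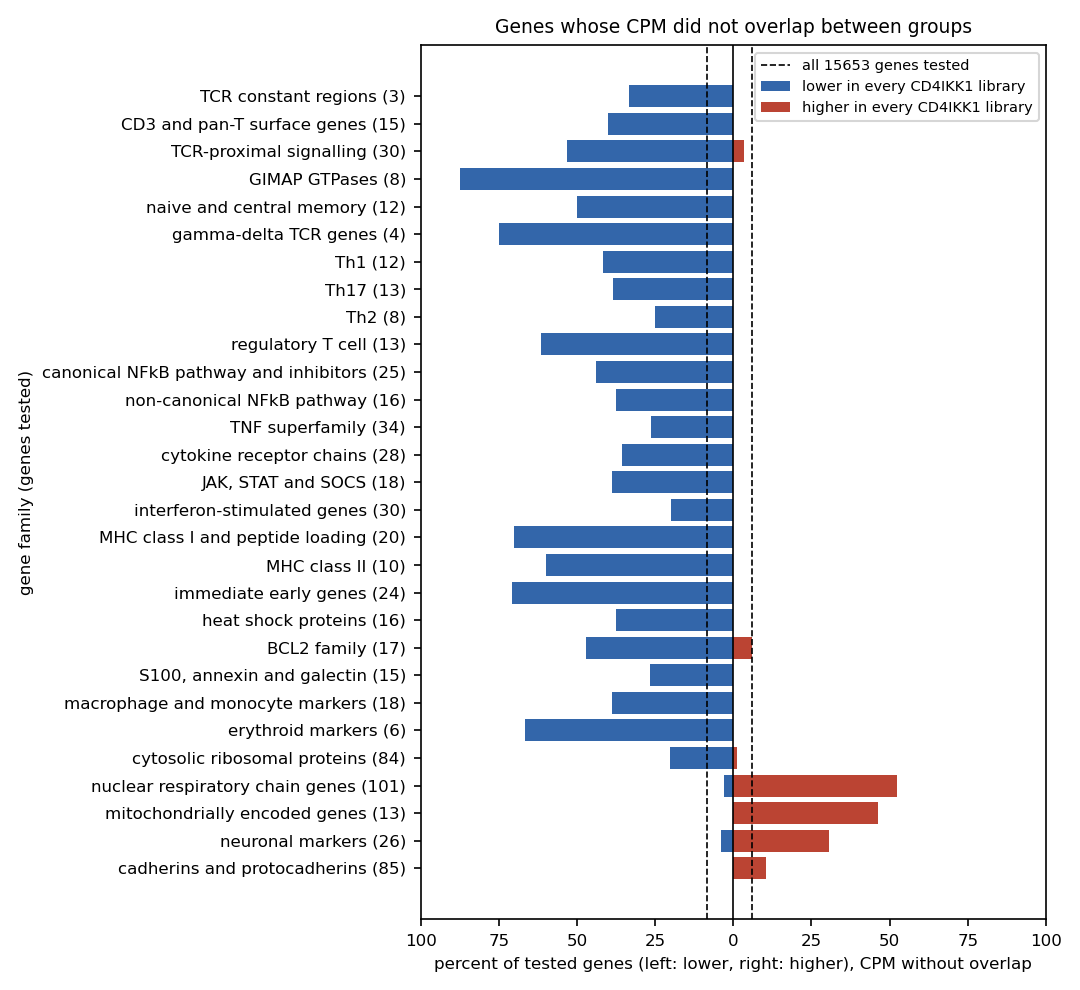
Percent of tested genes of each family whose CPM was lower (blue, left) or higher (red, right) in all 5 libraries labelled CD4IKK1 than in all 3 CD4cre libraries, with the number of genes tested in brackets and dashed lines at 8.38% and 6.09% for all genes. T cell, NFκB, MHC and immediate early families reach far beyond the left line, and the nuclear respiratory chain genes reach 52.5% on the right.

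Most genes of T cell identity had lower levels in the libraries labelled CD4IKK1. Of 15 tested CD3 and pan-T surface genes, 14 had a lower mean and 6 were lower in every library labelled CD4IKK1 (Cd28, Cd2, Cd3e, Cd27, Icos and Trat1). Their median log2 fold change was −1.89 (−1.31 without CD4IKK1 replicates 1 and 2), and DESeq2 called 1 of them, Trat1. Cd28, the main costimulatory receptor, had 179, 119.8 and 62.5 CPM in CD4cre and 0.395, 4.67, 11.4, 30.02 and 38.1 CPM in CD4IKK1 (log2 fold change −2.83, or −2.18 without replicates 1 and 2, SE 1.11, FDR 0.276). Trat1, which encodes an adaptor that associates with the TCR, had 44.4, 28.6 and 23.4 CPM and 4.93, 6.39, 15.6, 10.5 and 13.02 CPM (log2 fold change −1.67, SE 0.39, FDR 0.09399, DESeq2 adjusted p 0.00258). No library labelled CD4IKK1 reached a control for either gene. Thy1, a surface glycoprotein of T cells that neurons also express, was the exception with 117, 146 and 159 CPM and 208, 169.5, 203, 159 and 158 CPM, where the groups overlap. On the TCR scale the CD3 and pan-T genes had a median difference of 0.16, close to the TCR genes themselves, with 0 genes lower and 2 higher without overlap.

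Most kinases and adaptors that relay the TCR signal had a lower mean. Of 30 genes tested, 29 had a lower mean, 16 were lower in every library labelled CD4IKK1 and 1 was higher, with a median log2 fold change of −1.92 (−1.40 without replicates 1 and 2) and 8 DESeq2 calls. Lck, the kinase that starts the cascade, had 215, 309 and 153 CPM in CD4cre and 1.97, 41.4, 115, 82.8 and 33.1 CPM in CD4IKK1 (log2 fold change −2.04, SE 0.97, FDR 0.3605). Pag1, an adaptor that brings the inhibitory kinase Csk to Lck, had 41.6, 15.3 and 26.6 CPM and 3.55, 4.296, 4.35, 9.53 and 8.36 CPM (log2 fold change −2.21, SE 0.44, FDR 0.08501, DESeq2 adjusted p 0.000173). Fyn, the other Src-family kinase of the TCR, had a narrower gap, with 93.02, 78.97 and 65.9 CPM and 37.7, 54.99, 44.5, 40.5 and 47.02 CPM (log2 fold change −0.82, SE 0.17, FDR 0.0898). Rasgrp1, which activates Ras downstream of the TCR, went the other way. It had 214, 199 and 224 CPM in CD4cre and 281, 369.6, 319.6, 276 and 308 CPM in the libraries labelled CD4IKK1 (log2 fold change 0.55, SE 0.11, FDR 0.0878, DESeq2 adjusted p 0.00126), each of the latter above each control. Neurons express Rasgrp1 as well. The TCR-relative median of the family was 0.08, with 0 genes lower without overlap.

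The GIMAP genes, a cluster of small GTPase genes with roles in lymphocyte survival, were among the families with the largest gap. Of 8 genes, 7 were lower in every library labelled CD4IKK1 and the median log2 fold change was −2.88 (−2.19 without replicates 1 and 2). Summed over the family, they had 1918, 1206 and 687 CPM in CD4cre and 8.69, 35.4, 192, 262 and 363 CPM in CD4IKK1, without overlap. Gimap1 had 216, 174 and 124 CPM and 1.78, 9.94, 21.7, 42.7 and 28.4 CPM (log2 fold change −3.03, SE 0.81, FDR 0.158, DESeq2 adjusted p 0.00944), and DESeq2 also called Gimap5 and Gimap8. Per TCR count the family's sum was 1.35, 1.06 and 1.07 in the CD4cre libraries and 0.291, 0.974 and 1.39 in CD4IKK1 replicates 3 to 5. Replicate 3 alone lay far below the controls, while replicate 5 lay above all of them. Only Gimap3 was lower without overlap on that scale, by a narrow margin, at 205, 215 and 177 against 65.1, 149.6 and 177 per 1000 TCR counts.

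Constant-region genes of the γδ TCR, which αβ T cells can transcribe without using them and γδ T cells use, were lower by more than the αβ constant regions. Trgc1, Trgc2 and Trgc4 were each lower in every library labelled CD4IKK1 and each called by DESeq2. Trgc4 had 528, 355 and 86 counts in CD4cre and 0, 1, 1, 2 and 17 counts in CD4IKK1 (log2 fold change −6.06, or −5.45 without replicates 1 and 2, SE 1.07, FDR 0.0632, DESeq2 adjusted p 8.48e-07). Per 1000 TCR counts it was at 14.8, 15.6 and 6.89 in CD4cre and at 0.131, 0.474 and 3.101 in CD4IKK1 replicates 3 to 5, a TCR-relative difference of −4.34. Trgc1 differed by −1.10 on that scale, also without overlap, and Trgc2 by −1.54 with overlap. Trgc1 and Trgc2 are near-identical copies, between which the assignment of reads is uncertain.

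Naive and central memory genes were lower in all 12 cases by their mean, 6 of them without overlap, with a median log2 fold change of −2.24 (−1.61 without replicates 1 and 2). Their TCR-relative median was 0.05, and none was lower without overlap per TCR count. Klf2, a transcription factor that keeps T cells quiescent and recirculating, had 1388, 414 and 586 CPM in CD4cre and 2.698, 14.8, 46.4, 261 and 281 CPM in CD4IKK1 (log2 fold change −2.71, or −2.02 without replicates 1 and 2, SE 1.35, FDR 0.382). Il7r, the receptor chain for the survival cytokine IL-7, had 271, 111 and 96.7 CPM and 0.987, 3.17, 7.83, 57.5 and 53.9 CPM (log2 fold change −2.69, or −2.0 without replicates 1 and 2, SE 1.26, FDR 0.351). For both genes CD4IKK1 replicate 3, which is rich in TCR transcripts, stood below replicates 4 and 5. Summed over the list, replicates 3 to 5 had 0.334, 2.35 and 2.83 counts per TCR count, beside 1.99, 0.984 and 1.69 in the CD4cre libraries.

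**Figure D2:**
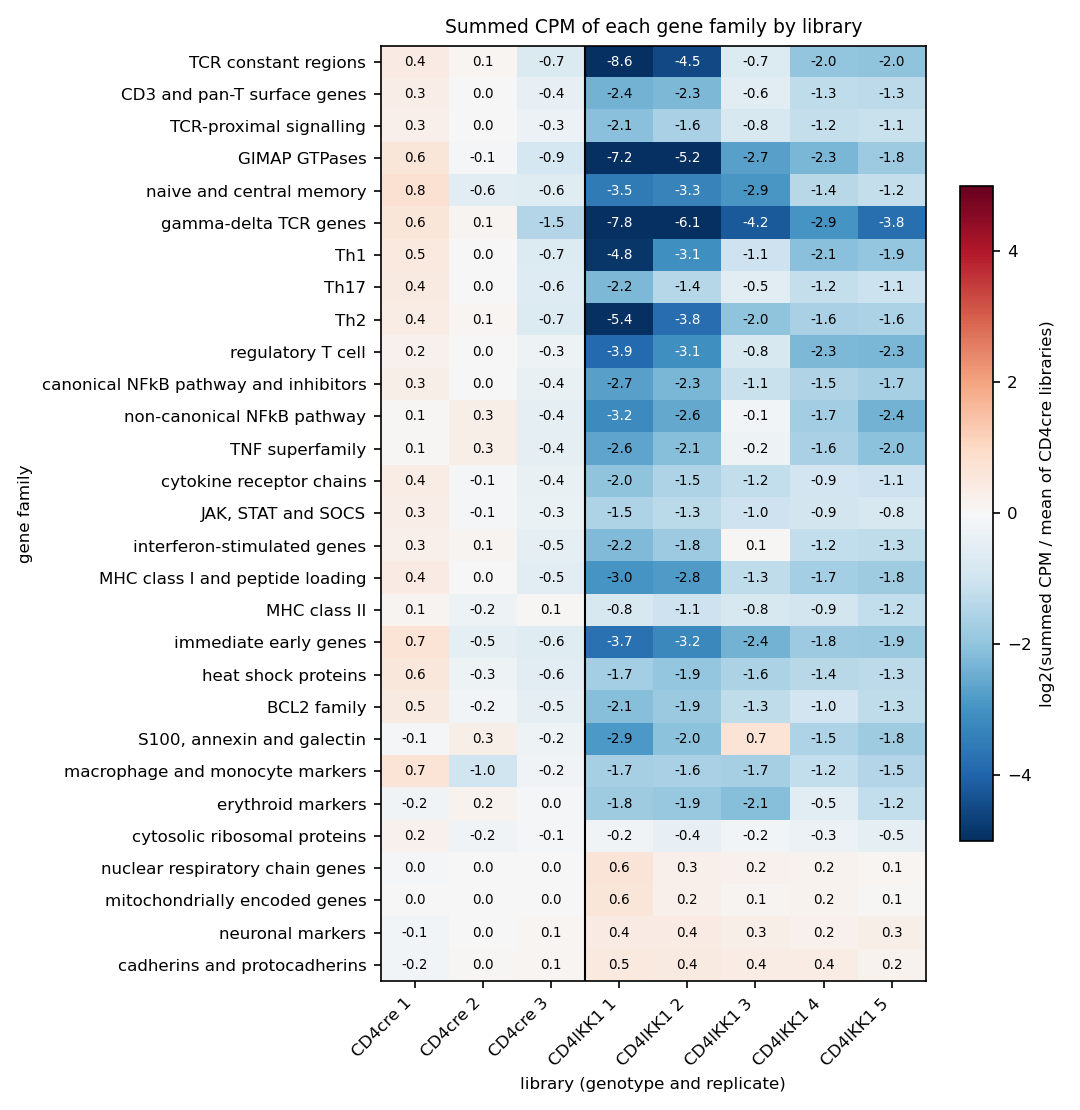
Log2 ratio of each family's summed CPM in a library (columns) to the mean of the 3 CD4cre libraries, for 29 gene families (rows), with blue below and red above that mean. The T cell families are lowest in CD4IKK1 replicates 1 and 2, and the respiratory chain and neuronal families lie slightly above 0 in all 5 libraries labelled CD4IKK1.

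Most helper cell genes had a lower mean CPM in each of the helper classes. Of the Th1 list, all 12 tested genes had a lower mean and 5 did not overlap (median −1.92, or −1.42 without replicates 1 and 2). Of the Th17 list 12 of 13 had a lower mean and 5 did not overlap (median −1.28, or −0.97). Of the Th2 list all 8 had a lower mean and 2 did not overlap (median −1.87, or −1.30), and of the regulatory T cell list all 13 had a lower mean and 8 did not overlap (median −2.39, or −1.69). Per TCR count the medians were −0.20, 0.41, 0.06 and −0.72, in the same order. Of the 13 regulatory T cell genes 2 were lower without overlap on that scale, and the sum of the list per TCR count overlapped between the groups, at 0.257, 0.274 and 0.402 in CD4cre and 0.267, 0.242 and 0.248 in CD4IKK1 replicates 3 to 5. Tnfrsf4, the receptor OX40 that activated T cells share, was the most abundant member of that list.

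Among single helper genes, Tbx21, the gene of the Th1 regulator T-bet, followed the TCR transcripts. It was at 23.9, 46.3 and 44.6 per 1000 TCR counts in CD4cre and 20.2, 37.05 and 48.6 in CD4IKK1 replicates 3 to 5, with overlap. Ifng, the Th1 cytokine, had 374, 139 and 112 CPM in CD4cre and 0, 2.04, 33.1, 36.5 and 54.5 CPM in CD4IKK1 (log2 fold change −3.04, or −2.33 without replicates 1 and 2, SE 1.40, FDR 0.347). Per 1000 TCR counts it overlapped, at 264, 122 and 174 in CD4cre and 50.1, 136 and 209 in replicates 3 to 5, of which replicate 3 alone was below the controls. Il17a, the Th17 cytokine, was at 18.6, 9.26 and 6.89 per 1000 TCR counts in CD4cre and 1.796, 0.284 and 2.75 in replicates 3 to 5, without overlap (−3.24). Il21, another cytokine of Th17 and follicular helper cells, had 2.53, 2.799 and 1.28 CPM and 0.132, 0.0537, 1.04, 0.357 and 0.277 CPM, and its ratio to the TCR did not overlap either (−0.59), although counts were low. Rora and Maf, transcription factors of Th17 cells, were lower in CPM in every library labelled CD4IKK1 (Rora log2 fold change −1.24, SE 0.31, FDR 0.107, Maf log2 fold change −1.23, SE 0.28, FDR 0.0909), with TCR-relative differences of 0.58 and 0.41. Of these Th17 genes, both cytokines thus lay below the TCR ratio of the controls and both transcription factors had a higher mean ratio. The sum of the list per TCR count was higher in CD4IKK1 replicates 3 to 5 (0.307, 0.479 and 0.533) than in every CD4cre library (0.28, 0.261 and 0.296), and 1 gene, Ahr, was higher without overlap on that scale, against 34.6% of all genes.

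Foxp3, the regulatory T cell factor, had 15.6, 9.05 and 10.97 CPM in CD4cre and 0, 3.01, 0.812, 3.57 and 1.39 CPM in CD4IKK1 (log2 fold change −2.75, SE 0.94, FDR 0.189, DESeq2 adjusted p 0.035). Its ratio to the TCR overlapped, at 11.01, 7.98 and 17.2 per 1000 in CD4cre and 1.27, 13.4 and 5.40 in CD4IKK1 replicates 3 to 5. Il2ra, the high-affinity IL-2 receptor chain, was lower without overlap on both scales when replicates 1 and 2 are left out, at 9.81, 11.8 and 17.5 per 1000 TCR counts in CD4cre and 2.94, 3.13 and 3.101 in replicates 3 to 5. Lrrc32, which holds latent TGF-β on regulatory T cells, was likewise lower (−2.96) at low counts. Pdcd1, the inhibitory receptor PD-1, had 72.5, 40.9 and 51.4 CPM and 0, 2.15, 6.21, 5.56 and 2.401 CPM (log2 fold change −4.07, SE 0.93, FDR 0.108, DESeq2 adjusted p 0.0116). Its ratio to the TCR was 51.2, 36.04 and 80.2 per 1000 in CD4cre and 9.42, 20.8 and 9.302 in replicates 3 to 5, without overlap. Ctla4, an inhibitory receptor of activated and regulatory T cells, had 74.5, 34.1 and 28.4 CPM and 0.0658, 1.77, 11.5, 4.38 and 10.6 CPM (log2 fold change −3.01, or −2.37 without replicates 1 and 2, SE 1.02, FDR 0.2096), and overlapped per TCR count. Of the 18 effector transcription factors, 9 were lower without overlap, among them Ets1 (log2 fold change −2.94, or −2.31 without replicates 1 and 2, SE 0.82, FDR 0.136) and Id3 (log2 fold change −1.40, SE 0.32, FDR 0.0909), and Zeb2 was higher.

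The genes of the pathway that IKK1 belongs to were mostly lower in CPM. Of 25 tested genes of the canonical NFκB pathway and its inhibitors, 24 had a lower mean, 11 did not overlap and 8 were called by DESeq2 (median log2 fold change −1.05, or −0.98 without replicates 1 and 2). Nfkbia encodes IκBα and is itself an NFκB target. It had 2214, 1713 and 1295 CPM in CD4cre and 84.1, 138, 803, 475 and 261 CPM in CD4IKK1 (log2 fold change −2.30, SE 0.73, FDR 0.203, DESeq2 adjusted p 0.0277). Rela, the main transactivating subunit, had 63.1, 51.3 and 39.6 CPM and 3.75, 6.12, 15.1, 9.84 and 25.5 CPM (log2 fold change −2.09, SE 0.51, FDR 0.107, DESeq2 adjusted p 0.00243). Tnfaip3, the ubiquitin-editing inhibitor A20, had 106, 90.5 and 102 CPM and 3.16, 3.06, 37.5, 23.3 and 29.4 CPM (log2 fold change −2.37, or −1.73 without replicates 1 and 2, SE 0.82, FDR 0.226). Ikbkb, the gene of IKK2, had 34.8, 62.8 and 21.5 CPM and 12.3, 9.56, 13.6, 16.8 and 8.54 CPM (log2 fold change −1.70, SE 0.35, FDR 0.0891, DESeq2 adjusted p 0.000549). Every library labelled CD4IKK1 was below every control for these 4 genes. Ikbkg, which encodes NEMO, overlapped, at 29.1, 15.2 and 8.47 CPM and 24.4, 13.7, 25.4, 21.9 and 14.96 CPM. On the TCR scale the list had a median of 0.56, with 0 genes lower and 1 higher without overlap.

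In the non-canonical branch 14 of 16 tested genes had a lower mean and 6 did not overlap (median −1.36, or −1.22 without replicates 1 and 2), with a TCR-relative median of 0.23. Map3k14, the gene of NIK, had 20.01, 20.1 and 14.99 CPM in CD4cre and 1.91, 5.05, 6.33, 9.48 and 7.85 CPM in CD4IKK1 (log2 fold change −1.58, SE 0.46, FDR 0.148, DESeq2 adjusted p 0.0165). Nfkb2, whose product p100 is processed in this branch, had 81.9, 91.7 and 85.5 CPM and 2.11, 14.8, 50.3, 29.8 and 18.4 CPM (log2 fold change −1.90, SE 0.74, FDR 0.263). Birc3, which encodes the NIK-degrading cIAP2, had 15.7, 7.35 and 5.15 CPM and 1.91, 2.42, 2.26, 2.905 and 3.46 CPM (log2 fold change −1.85, SE 0.50, FDR 0.127, DESeq2 adjusted p 0.00551). Relb, the partner of p52, and Traf3, the adaptor that targets NIK for degradation, did not separate, with Relb at 21.9, 12.4 and 36.6 CPM and 7.896, 14.2, 48.2, 20.1 and 7.71 CPM (log2 fold change −0.27, SE 0.61, FDR 0.899) and Traf3 at 19.02, 7.85 and 5.61 CPM and 18.03, 22.9, 6.44, 5.15 and 1.15 CPM (log2 fold change −0.02, or −1.35 without replicates 1 and 2, SE 0.79, FDR 0.996). CD4IKK1 replicate 3 held the highest Relb of all libraries. Of the ligands that drive the branch, Cd40lg had 49.8, 33.8 and 23.6 CPM and 0.0658, 0.806, 6.91, 7.59 and 13.9 CPM without overlap (log2 fold change −2.60, or −1.91 without replicates 1 and 2, SE 1.08, FDR 0.287), whereas Ltb overlapped at 619, 778 and 426 CPM and 0.197, 28.9, 608, 118 and 40.6 CPM (log2 fold change −1.93, or −1.25 without replicates 1 and 2, SE 1.57, FDR 0.6203). Over the 34 tested TNF superfamily ligands and receptors the median was −1.44 in CPM (−1.15 without replicates 1 and 2) and 0.09 per TCR count, and Tnfsf9, the ligand of the costimulatory receptor 4-1BB, was lower without overlap on both scales with all 8 libraries.

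Most genes that receive and relay cytokine signals had a lower mean. Of 28 tested cytokine receptor chains 23 had a lower mean and 10 were lower without overlap (median log2 fold change −1.20, or −1.01 without replicates 1 and 2, TCR-relative 0.27). Of 18 JAK, STAT and SOCS genes 14 had a lower mean and 7 were lower without overlap (−1.18, −0.91 and 0.63), and DESeq2 called 6 of the list. Stat5a, which transmits IL-2 and IL-7 signals, had 25.6, 22.6 and 16.7 CPM in CD4cre and 0.987, 2.52, 5.46, 4.08 and 6.37 CPM in CD4IKK1 (log2 fold change −2.47, SE 0.52, FDR 0.0898, DESeq2 adjusted p 0.000309). Socs1, a feedback inhibitor of JAK kinases, had 216, 163 and 122 CPM and 6.19, 10.6, 26.98, 59.5 and 54.6 CPM (log2 fold change −2.40, SE 0.72, FDR 0.182, DESeq2 adjusted p 0.028). Ifngr1, the ligand-binding chain of the interferon-γ receptor, had 103, 89.3 and 50.4 CPM and 4.28, 4.296, 15.3, 19.5 and 28.7 CPM (log2 fold change −2.48, SE 0.62, FDR 0.126, DESeq2 adjusted p 0.000609). For all 3 genes the groups did not overlap. Among 26 tested chemokine ligands 18 had a lower mean, 7 were lower without overlap and 1 was higher (Ccl27a, named after its values were seen). Of the lower ones, Ccl6, a myeloid chemokine, had 29.3, 5.997 and 14.5 CPM and 1.84, 2.85, 3.83, 2.14 and 1.801 CPM (log2 fold change −2.74, SE 0.53, FDR 0.0844).

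Antigen presentation genes had some of the highest shares of genes lower without overlap. Of 20 tested MHC class I and peptide loading genes, 14 (70%) were lower in every library labelled CD4IKK1 (median log2 fold change −1.91, or −1.54 without replicates 1 and 2, TCR-relative 0.01). B2m, the light chain of class I, had 1361, 855 and 511 CPM in CD4cre and 189, 159, 328, 263 and 417 CPM in CD4IKK1 (log2 fold change −1.74, SE 0.39, FDR 0.113, DESeq2 adjusted p 0.00293). H2-D1, a class I heavy chain, had 3009, 2183 and 1596 CPM and 10.5, 69.8, 704, 538 and 457 CPM (log2 fold change −2.67, or −2.0 without replicates 1 and 2, SE 1.13, FDR 0.309). H2 heavy chains share sequence, so that their separate counts are uncertain. Of 10 tested MHC class II genes 6 were lower without overlap, with a median of −2.48 in CPM (−2.14 without replicates 1 and 2) and −0.98 per TCR count, on which scale 3 of the 10 genes were lower without overlap. The summed level of the list was 301, 231 and 285 CPM in CD4cre and 158, 131, 157, 145 and 116 CPM in CD4IKK1, since it is led by H2-DMa, a chain of the peptide exchange factor, which had 128, 116 and 144 CPM and 151, 123, 136, 109 and 101 CPM. Per TCR count the sum was 0.212, 0.203 and 0.445 in CD4cre and 0.236, 0.539 and 0.446 in CD4IKK1 replicates 3 to 5, so that it was not lower there, in contrast to the median of the genes. H2-Ab1, a class II β chain, was lower without overlap on both scales with all 8 libraries. It was at 43.8, 45.3 and 91.6 per 1000 TCR counts in CD4cre, at 7.67, 27 and 9.48 in CD4IKK1 replicates 3 to 5, and had 0 counts in replicate 1. Mouse T cells make little class II, and the class II genes are those of macrophages, dendritic cells and B cells. Macrophage genes were on the lower side in CPM, with 7 of 18 lower without overlap (median −2.02, or −2.07 without replicates 1 and 2), 9 called by DESeq2 and a TCR-relative median of −0.31. On the TCR scale 1 gene was lower and 2 were higher without overlap. The list's sum per TCR count was 2.87, 1.11 and 3.49 in CD4cre and 1.20, 4.01 and 3.52 in CD4IKK1 replicates 3 to 5, so that replicates 4 and 5 lay above every control. Lyz2, the lysozyme of myeloid cells, had 361, 141 and 84.3 CPM and 3.95, 0.967, 4.24, 24.1 and 7.34 CPM (log2 fold change −4.58, SE 1.01, FDR 0.119, DESeq2 adjusted p 0.000309) and was lower per TCR count too. C1qc, a complement gene of tissue macrophages, had 330.4, 92.8 and 172 CPM and 16.4, 23.6, 39.7, 60.95 and 31.7 CPM (log2 fold change −2.52, SE 0.50, FDR 0.0905, DESeq2 adjusted p 2.14e-06). Of the dendritic cell markers 0 of 7 were lower without overlap (median −0.42), and of the B cell markers 1 of 6 was lower and 1 higher (median −0.48, or −0.18 without replicates 1 and 2). Summed, however, the B cell markers had 114, 154 and 79.7 CPM in CD4cre and 11.1, 23.8, 26.3, 35.3 and 23.5 CPM in CD4IKK1, without overlap. The part of such cells in the class II values was not tested.

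Interferon-stimulated genes stood nearer to the 8.38% of all genes. Of 30 tested, 6 (20%) were lower without overlap (median −1.12, or −0.71 without replicates 1 and 2), and summed they had 402, 367 and 245 CPM in CD4cre and 73.4, 96.3, 355, 144 and 142 CPM in CD4IKK1, where replicate 3 lay inside the controls' range. Per TCR count the median was 0.67, below the 1.48 of all genes. On that scale 0 genes were lower and 8 (26.7%) higher without overlap, beside 34.6% of all genes. The sum was 0.284, 0.323 and 0.382 in CD4cre and 0.536, 0.534 and 0.545 in CD4IKK1 replicates 3 to 5, above every control. The sum of all genes tested per TCR count was above every control in these replicates as well. Parp14, an interferon-induced ADP-ribosyltransferase, had 14.7, 15.1 and 8.21 CPM and 0.263, 1.61, 5.69, 3.62 and 3.09 CPM (log2 fold change −2.14, SE 0.71, FDR 0.181). Of the 15 interferon-induced GTPases 7 were lower without overlap (median −2.11, TCR-relative −0.33). The Gbp genes are close copies of each other, hence their single values are uncertain.

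Immediate early genes, which cells switch on within minutes of a stimulus and during tissue handling, had a high share of separated genes. Of 24 tested, 17 (70.8%) were lower in every library labelled CD4IKK1, 10 were called by DESeq2 and the median log2 fold change was −2.09 (−1.70 without replicates 1 and 2). Summed, they had 22535, 10199 and 9069 CPM in CD4cre and 1046, 1495, 2693, 3978 and 3818 CPM in CD4IKK1. Ier5, which codes for a regulator of the heat shock factor Hsf1, had 344, 201 and 165 CPM and 37.6, 41.1, 62.7, 73.1 and 64.3 CPM (log2 fold change −2.08, SE 0.28, FDR 0.0551, DESeq2 adjusted p 1.18e-09). Myc, a driver of T cell growth, had 72.8, 76.3 and 30.6 CPM and 5.66, 9.18, 11.8, 16.4 and 23.7 CPM (log2 fold change −2.16, SE 0.43, FDR 0.0878, DESeq2 adjusted p 0.000202). Jun and Fos, which form AP-1, were at −3.05 and −2.99 (DESeq2 adjusted p 0.001 and 0.0106). Egr3, Nr4a2 and Nr4a3 had log2 fold changes from 0.03 to 0.41, with overlapping groups. The TCR-relative median was −0.25 and no gene was lower without overlap. The list's sum per TCR count was 15.9, 8.97 and 14.2 in CD4cre and 4.07, 14.8 and 14.6 in CD4IKK1 replicates 3 to 5, so that replicate 3 lay below and replicates 4 and 5 within the controls.

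Heat shock genes were lower in all 16 tested cases by their mean and in 6 without overlap, but no member was called by DESeq2 (median log2 fold change −0.68, or −0.59 without replicates 1 and 2). The inducible members had the widest gap. Hspa1a, the inducible Hsp70, had 9791, 5206 and 3631 CPM in CD4cre and 11.4, 91.8, 555, 1036 and 1374 CPM in CD4IKK1 (log2 fold change −3.34, or −2.65 without replicates 1 and 2, SE 1.29, FDR 0.275). Its near-identical copy Hspa1b was at −3.47 (−2.79 without replicates 1 and 2), and the split of reads between these copies is uncertain. The constitutive Hspa8 had a far narrower but more even gap, with 1900.5, 1660.2 and 1744 CPM and 1056, 922, 1184, 1212 and 1022 CPM (log2 fold change −0.71, SE 0.10, FDR 0.0551, DESeq2 adjusted p 1.11e-06). Hsp90aa1 did not separate, at 2715, 2250.3 and 2495 CPM and 2892, 2288, 2383, 2222 and 2143 CPM (log2 fold change −0.06, SE 0.10, FDR 0.858). Per 1000 TCR counts Hspa1a overlapped, at 6911, 4581 and 5668 in CD4cre and 838, 3852 and 5272 in CD4IKK1 replicates 3 to 5, where replicate 3 was far below the others. The family had a TCR-relative median of 0.90, with 0 genes lower and 2 higher without overlap.

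Promoters were read for the element that the heat shock factor Hsf1 recognises and for a κB motif. The 250 bases before the start site were searched in RefSeq windows of GRCm38.p6, which is another build than that of the gene coordinates above, for the paired heat shock element GAANNTTC on both strands, which read the same for this motif. It was present in 6 of 12 heat shock genes with a window (50%), in 2 of 19 immediate early genes (10.5%), in 2 of 20 canonical NFκB genes (10%) and in 781 of 11738 tested genes (6.65%). The same windows were searched for a κB consensus, which was present in 3 of 20 canonical NFκB genes (15%), in 0 of 12 heat shock genes, in 0 of 19 immediate early genes and in 55 of 11738 tested genes (0.469%). A match is a description of the letters, not of binding. The 150 bases before the start of Hspa1a (chr17:34972157-34972306, minus strand) and of Hspb1 (chr5:135887769-135887918, plus strand) are given as 2 members with a wide gap, with the elements in capitals.
Hspa1a: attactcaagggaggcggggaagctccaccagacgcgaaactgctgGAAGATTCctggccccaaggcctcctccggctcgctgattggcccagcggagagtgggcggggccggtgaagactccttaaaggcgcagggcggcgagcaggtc
Hspb1: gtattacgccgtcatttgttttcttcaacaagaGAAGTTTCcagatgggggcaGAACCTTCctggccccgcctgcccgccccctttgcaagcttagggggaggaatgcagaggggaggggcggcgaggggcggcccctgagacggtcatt
Hspb1, which encodes the small heat shock protein Hsp27, had 82.03, 59.6 and 49.5 CPM in CD4cre and 0.724, 3.65, 2.67, 31.1 and 15.8 CPM in CD4IKK1 (log2 fold change −2.56, or −1.95 without replicates 1 and 2, SE 1.02, FDR 0.277), without overlap.

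Of 12 tested glucocorticoid genes 9 had a lower mean, 5 were lower and 1 higher without overlap (median −0.84, or −0.79 without replicates 1 and 2). Nr3c1, the glucocorticoid receptor, had 186, 135 and 129 CPM in CD4cre and 73.4, 72.2, 79.2, 77.7 and 83.4 CPM in CD4IKK1 (log2 fold change −0.96, SE 0.14, FDR 0.0551, DESeq2 adjusted p 6.94e-07), with a spread of 72.2 to 83.4 CPM over the 5 libraries. Of its known targets, Ddit4 had 13.6, 8.15 and 8.36 CPM and 0.0658, 0.806, 1.51, 1.38 and 1.89 CPM (log2 fold change −3.14, SE 0.76, FDR 0.0998), Per1 64.7, 63.5 and 58.6 CPM and 24.9, 36.3, 38.5, 35.7 and 32.5 CPM (log2 fold change −0.89, SE 0.18, FDR 0.08501), and Fkbp5 a log2 fold change of 0.32. In the BCL2 family 8 of 17 tested genes were lower without overlap (median −1.33, or −1.09 without replicates 1 and 2), both pro-death and pro-survival. The pro-death Bax had 204, 152 and 139 CPM and 47.6, 57.4, 74.9, 88.9 and 60.3 CPM (log2 fold change −1.33, SE 0.20, FDR 0.0551, DESeq2 adjusted p 2.38e-06), the pro-survival Bcl2 349, 263 and 139.8 CPM and 20.3, 27.7, 31.9, 108 and 86.96 CPM (log2 fold change −2.19, SE 0.62, FDR 0.167, DESeq2 adjusted p 0.0204), and Hrk, a pro-death gene of neurons, was higher (log2 fold change 0.54, SE 0.15, FDR 0.138). Cell cycle genes had a median of −0.50 with 4 of 26 lower without overlap, and the inflammasome genes Casp1 and Aim2 were lower without overlap (Casp1 log2 fold change −2.49, SE 0.55, FDR 0.0905, Aim2 log2 fold change −2.16, SE 0.59, FDR 0.129). The TCR-relative medians of the glucocorticoid, BCL2, cell cycle and inflammasome lists were 0.72, 0.35, 0.59 and 0.48. On that scale 0, 0, 0 and 2 genes were lower without overlap and 2, 3, 4 and 0 higher, beside 0.773% and 34.6% of all genes.

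**Figure D3:**
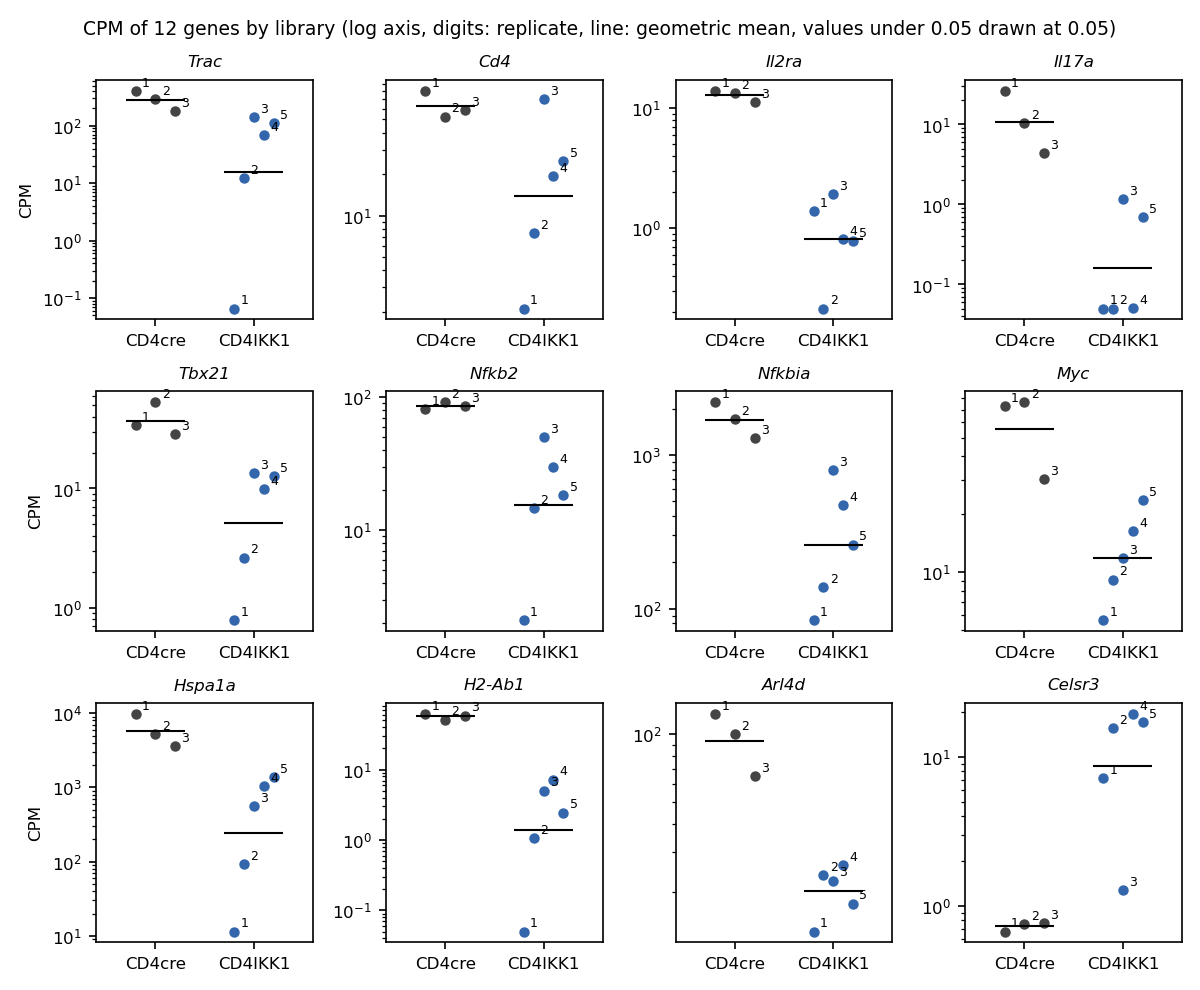
CPM (log axis) of 12 genes in the 3 CD4cre (grey) and 5 CD4IKK1 (blue) libraries, with replicate numbers and the geometric mean as a line, where values under 0.05 are drawn at 0.05. Cd4 overlaps between the groups, the other genes do not, and Celsr3 alone is higher in the libraries labelled CD4IKK1.

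Genes of the respiratory chain had the highest share on the higher side among the 67 lists. Of 101 tested nuclear genes of the respiratory chain, 53 (52.5%) were higher in every library labelled CD4IKK1 and 3 lower, with a median log2 fold change of 0.33 (0.17 without replicates 1 and 2). DESeq2 called 0 of them higher, for which both an adjusted p under 0.05 and a difference of more than 2-fold were needed. Summed they had 28338, 29835 and 29568 CPM in CD4cre and 45354, 34833, 33707, 32645 and 31612 CPM in CD4IKK1. Ndufv2, a complex I subunit, had 62.1, 61.4 and 61.7 CPM and 101, 87.6, 81.2, 71.7 and 85.9 CPM (log2 fold change 0.47, SE 0.14, FDR 0.153), and Cox5a, a complex IV subunit, had 728, 770.1 and 763 CPM and 1304, 943, 886, 868 and 842 CPM (log2 fold change 0.36, SE 0.14, FDR 0.233). All 13 mitochondrially encoded genes had a higher mean and 6 were without overlap (median 0.27), such as mt-Cytb with 2058, 2159.7 and 1995 CPM and 2807, 2413, 2230.5, 2269.8 and 2305 CPM (log2 fold change 0.22, SE 0.09, FDR 0.249). Replicate 1, which has the fewest TCR counts, was the highest library in both sums. The TCR-relative medians of 1.67 and 1.62 lie near the 1.48 of all genes. The shares higher without overlap on that scale were above the 34.6% of all genes, however. They were 81 of 101 (80.2%) for the nuclear and 10 of 13 (76.9%) for the mitochondrially encoded genes.

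Other housekeeping families divided. Of 84 tested cytosolic ribosomal protein genes 17 (20.2%) were lower and 1 higher without overlap (median −0.24). Rpl13 had 525, 406 and 379.9 CPM and 240.3, 252, 273, 274 and 237 CPM (log2 fold change −0.78, SE 0.11, FDR 0.0551, DESeq2 adjusted p 2.67e-06), and pseudogenes share its sequence. Glycolysis and hypoxia genes had a median of 0.13, where the enzyme gene Tpi1 was higher in every library labelled CD4IKK1 (log2 fold change 0.29, SE 0.06, FDR 0.0898) and Ldha lower (log2 fold change −2.03, SE 0.63, FDR 0.162). Proteasome subunits (0.09), splicing factors (−0.01), translation initiation factors (−0.07), zinc finger genes (−0.06), solute carriers (−0.05) and sterol and fatty acid synthesis genes (0.03) had medians near the 0.02 of all genes. Ftl1, the ferritin light chain, was lower (log2 fold change −0.97, SE 0.18, FDR 0.0759, DESeq2 adjusted p 0.000285) and Gpx4, which protects membranes from lipid peroxides, higher (log2 fold change 0.30, SE 0.10, FDR 0.174), both without overlap.

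Most genes of neurons and of cell contacts had a higher mean, by small amounts and mostly with overlap between the groups. Of 26 tested neuronal markers 8 (30.8%) were higher in every library labelled CD4IKK1 and 1 lower (median 0.32). Gap43, a growth cone gene, had 2047, 2232 and 2308 CPM in CD4cre and 3151, 2856, 2744, 2649.7 and 2662 CPM in CD4IKK1 (log2 fold change 0.36, SE 0.08, FDR 0.0905, DESeq2 adjusted p 0.0089). Axon guidance genes were higher without overlap in 7 of 53 cases (median 0.31), cadherins and protocadherins in 9 of 85 (0.39) and ion channel subunits in 8 of 109 (0.26), while 0, 0 and 3 were lower. Shares of 13.2%, 10.6% and 7.34% set these 3 lists nearer to the 6.09% of all genes than the neuronal markers. Epha4, an ephrin receptor, had 22.9, 14.2 and 4.23 CPM and 25.1, 49.2, 101, 79.6 and 55.2 CPM (log2 fold change 2.17, SE 0.60, FDR 0.151, DESeq2 adjusted p 0.0011). Celsr3, an adhesion receptor of the cadherin family, had 0.672, 0.7497 and 0.765 CPM and 7.17, 15.7, 1.28, 19.4 and 17.2 CPM (log2 fold change 4.05, SE 0.84, FDR 0.0891, DESeq2 adjusted p 5.76e-06). CD4IKK1 replicate 3, richest in TCR counts, came closest to the controls for Celsr3 but was the highest for Epha4. Relative to the TCR, the neuronal markers had a median of 1.73, beside 1.48 for all genes, and 13 of 26 (50%) were higher without overlap, beside 34.6%. Cnp, a myelin gene that many cells express, was lower (log2 fold change −1.44, SE 0.22, FDR 0.0551, DESeq2 adjusted p 2.34e-06), unlike the oligodendrocyte and astrocyte list as a whole (0.55).

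**Figure D4:**
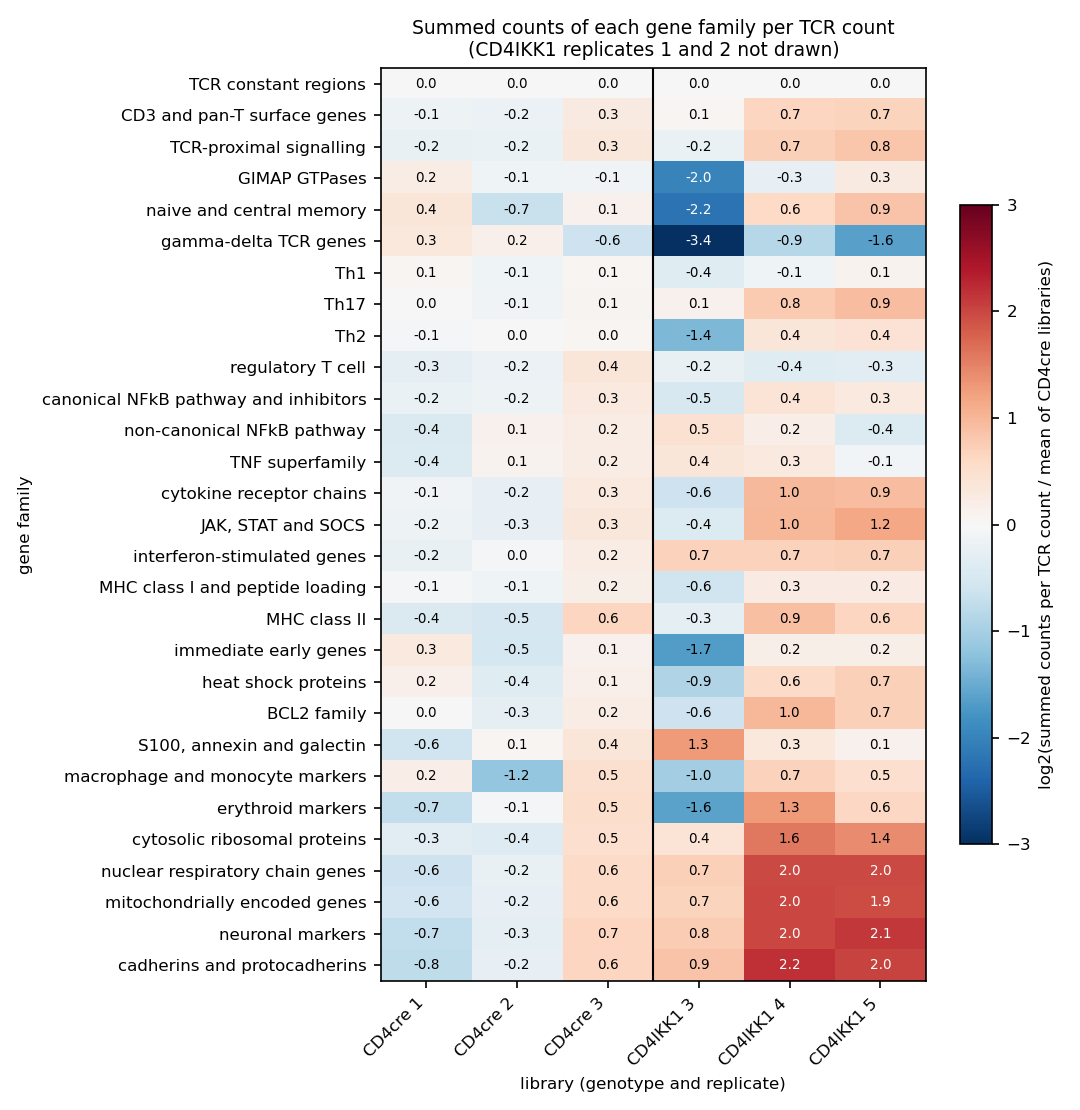
Log2 ratio of each family's summed counts per TCR count in a library (columns) to the mean of the 3 CD4cre libraries, for the same 29 families (rows), without CD4IKK1 replicates 1 and 2. GIMAP, naive, γδ and immediate early genes are lowest in replicate 3, and the respiratory chain, neuronal and cadherin families lie far above the controls in replicates 4 and 5.

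A comparison of libraries with nearly the same TCR level was possible for CD4cre replicate 3 (641 CPM) and CD4IKK1 replicate 3 (662 CPM), as values of 2 libraries with no test. The CD3 and pan-T genes summed to 949 and 848 CPM, the Th17 list to 189.5 and 203 CPM, and the non-canonical NFκB list to 707 and 864 CPM. Most of the non-canonical sum was Ltb in both libraries, and Ltb itself was higher in CD4IKK1 replicate 3, so that the sum does not describe the list as a whole. The naive and central memory list was at 1085 and 221 CPM, the GIMAP genes at 687 and 192 CPM, the immediate early genes at 9069 and 2693 CPM, and MHC class I and peptide loading at 3992 and 2413 CPM. In the other direction, S100, annexin and galectin genes, many of them high in effector memory cells, summed to 349.6 and 671 CPM. CD4IKK1 replicates 4 and 5 had 142 and 119.7 CPM of that list, so that replicate 3 stands apart from its own group here.

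With all 8 libraries, the 4 genes lower without overlap on both scales were H2-Ab1, H2-Q5, Serpina3f and Tnfsf9. Serpina3f, a serine protease inhibitor gene of activated leukocytes, had 1039, 826 and 202 counts in CD4cre and 0, 11, 48, 32 and 53 counts in CD4IKK1 (log2 fold change −4.36, or −3.75 without replicates 1 and 2, SE 0.95, FDR 0.0909, DESeq2 adjusted p 4.28e-05). Tnfsf9 had 736, 629 and 309 counts and 0, 10, 195, 45 and 62 counts (log2 fold change −2.90, or −2.22 without replicates 1 and 2, SE 1.17, FDR 0.27). H2-Q5 had 2499, 1177 and 561 and 0, 33, 249, 128 and 200 counts (log2 fold change −3.28, or −2.63 without replicates 1 and 2, SE 1.14, FDR 0.226) and shares sequence with other class I genes. All 4 had 0 counts in CD4IKK1 replicate 1, which decides their ratio there together with the prior count, and with a prior count of 2 none was left. Of the 121 genes lower per TCR count without replicates 1 and 2, Serpinb6b, an inhibitor of granule proteases, was far below, with 51.5, 29.1 and 22.8 CPM in CD4cre and 0.0658, 1.07, 1.97, 0.204 and 0.9698 CPM in CD4IKK1 (log2 fold change −5.31, SE 0.77, FDR 0.0551, DESeq2 adjusted p 1.69e-10, TCR-relative −3.91). Anxa1, an anti-inflammatory annexin, had 8.899, 16.04 and 3.57 CPM and 0.724, 0.537, 2.55, 0.204 and 0 CPM (TCR-relative −3.58), and Casp1, the inflammasome protease, 25.3, 20.4 and 19.02 CPM and 1.12, 4.67, 8.41, 2.29 and 2.72 CPM (TCR-relative −1.01). Stap1, a signalling adaptor of leukocytes, had 18.7, 15.5 and 11.6 CPM and 1.51, 1.02, 3.66, 1.58 and 1.02 CPM (log2 fold change −3.12, SE 0.52, FDR 0.0551, TCR-relative −1.54). Stap1 was named after its values were seen.

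**Figure D5:**
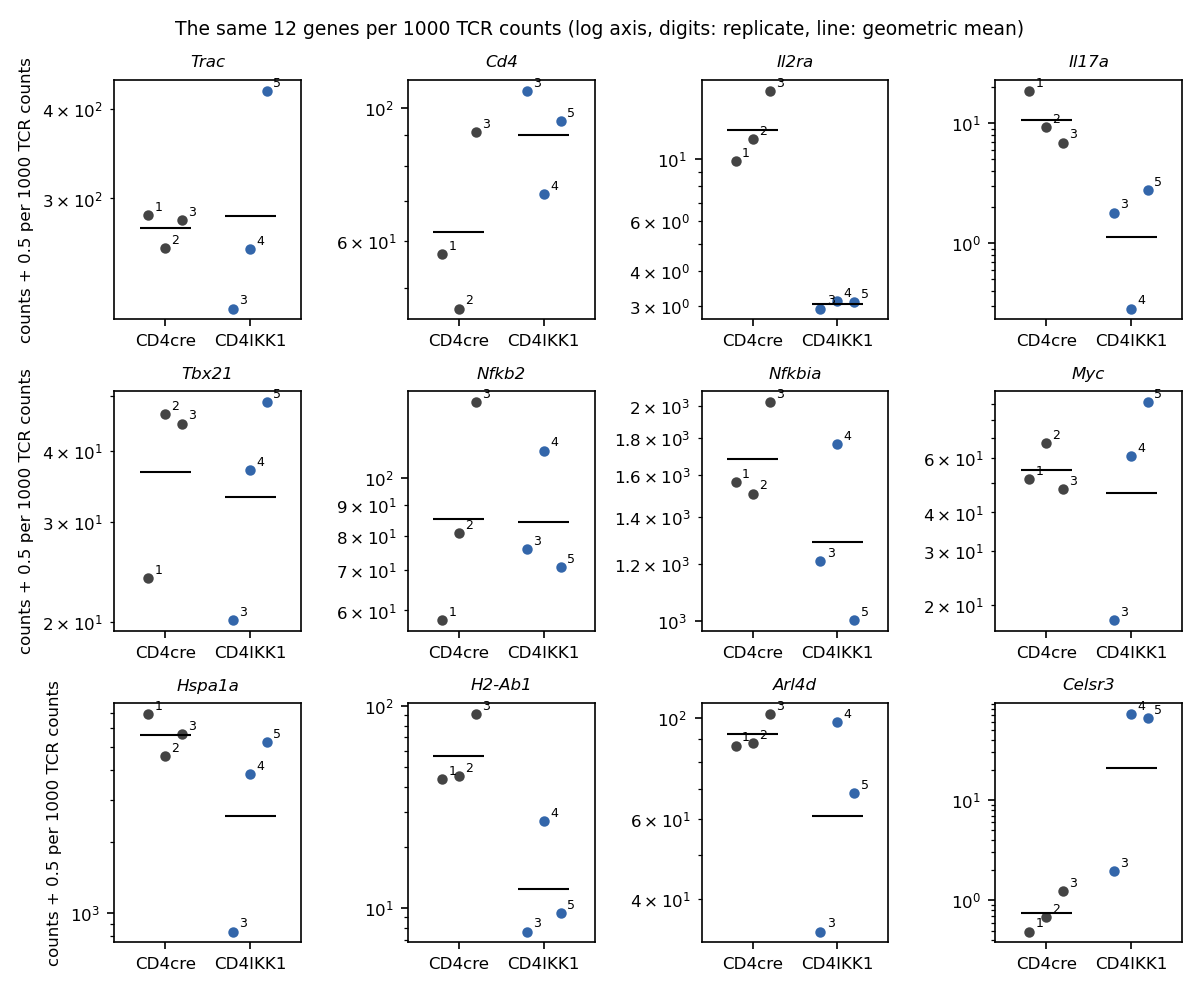
Counts plus 0.5 per 1000 TCR counts (log axis) of the same 12 genes in the 3 CD4cre libraries (grey) and in CD4IKK1 replicates 3 to 5 (blue), with replicate numbers and the geometric mean as a line. Il2ra, Il17a and H2-Ab1 stay below all controls, Trac and Tbx21 overlap with them, and Celsr3 stays above.

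The genes with the smallest p among those lower without overlap were Arl4d, Hspa8, Ier5, Tob2 and Hdhd5. Arl4d, a small GTPase of the ARF family, had 123, 100.2 and 65.4 CPM in CD4cre and 13.4, 23.8, 22.5, 26.3 and 17.8 CPM in CD4IKK1, with the smallest FDR of all genes (log2 fold change −2.21, SE 0.25, FDR 0.0543, DESeq2 adjusted p 1.89e-11). Tob2, an antiproliferative gene, had 119, 108 and 102 CPM and 31.6, 44.7, 54.1, 52.7 and 45.95 CPM (log2 fold change −1.25, SE 0.18, FDR 0.0551, DESeq2 adjusted p 1.57e-07), and Hdhd5 had 90.2, 57.5 and 39.7 CPM and 14.7, 14.6, 12.3, 21.6 and 17.3 CPM (log2 fold change −1.96, SE 0.28, FDR 0.0551). For Tob2 and Hdhd5 replicates 1 and 2 lay close to the other libraries labelled CD4IKK1, despite their few TCR counts. Per 1000 TCR counts Arl4d overlapped, at 87.03, 88.2 and 102 in CD4cre and 33.95, 97.9 and 68.3 in replicates 3 to 5, with replicate 3 the lowest, and Tob2 differed by 0.39 relative to the TCR. On the higher side the leading genes were Gprasp2, Nanp, C1qtnf4, Rheb and Cgref1. Gprasp2, which sorts G protein-coupled receptors, had 78.4, 75.9 and 76.4 CPM and 129, 135, 107, 125 and 114 CPM (log2 fold change 0.66, SE 0.12, FDR 0.0682, DESeq2 adjusted p 1.39e-05), and Rheb, the GTPase that activates mTORC1, had 786, 820.0 and 821 CPM and 1219, 1067, 1034, 1021 and 1068 CPM (log2 fold change 0.42, SE 0.08, FDR 0.07803, DESeq2 adjusted p 0.000661). Both were higher in 5 of 5 libraries and by less than 2-fold. Mpdz, a scaffold of cell junctions, had the largest fold among the 10 leading higher genes, with 12.1, 23.8 and 18.3 CPM and 30.1, 58.8, 59.9, 59.4 and 41.1 CPM (log2 fold change 1.46, SE 0.30, FDR 0.0891, DESeq2 adjusted p 0.000268). Rnf185, a ubiquitin ligase gene, did not pass the expression filter, with 0 counts in the 3 CD4cre libraries and in CD4IKK1 replicates 1 to 3 and 264 and 224 counts in replicates 4 and 5.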

How the data were processed

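RNA of 8 libraries of sorted renal CD4+ T cells was used. Per the labels and the methods of the study, reads were trimmed with Trimmomatic and quantified against transcripts with kallisto. The deposited values are estimated counts per gene symbol (35814 symbols), which the authors did not normalize and which were rounded here. The processing notes of the submitters name mm10, whereas the methods name GRCm39. Coordinates of genes are from GRCm39, promoter sequences from RefSeq (GRCm38.p6). No 2 libraries held identical values. The 3 CD4cre and 5 CD4IKK1 libraries were compared with edgeR 4.0.16 in R 4.3.3 (expression filter of the package, TMM, robust quasi-likelihood test, Benjamini-Hochberg FDR under 0.05 and more than 2-fold) and with DESeq2 1.42.0. The pipeline was tested on simulated data. TCR-relative values are (count + 0.5) per count of Trac, Trbc1 and Trbc2, without a test. The 3 counts given in CPM are a floor set by depth, which does not cover the spread between libraries. Members, the 67 gene lists and the rule for named genes (per list up to 3 genes without overlap of smallest p, over all genes 10 lower and 10 higher, and 10 lower on both scales, besides Chuk, Map3k14, Trac, Trbc1, Trbc2, Cd3e, Cd4 and genes of the study's text) were chosen with earlier results of these data known. Other genes were named after their values were seen, among them B2m, Cd40lg, Cox5a, Ccl27a, Egr2, Egr3, Fkbp5, Fos, Gimap3, H2-D1, H2-DMa, Hsp90aa1, Hspa1a, Hspa1b, Hspb1, Ifng, Ifngr1, Ikbkg, Il21, Il7r, Jun, Klf2, Lck, Lrrc32, Ltb, Lyz2, Nfkbia, Relb, Socs1, Stap1, Thy1, Tnfaip3 and Traf3. Other normalizations, filters, libraries left out and a replicate block were tried. Some listed markers are not reported here one by one.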

Additional observations from a re-analysis of the deposited data

Results flagged for a closer look

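Among the summed CPM values of 67 gene lists in the 5 libraries labelled CD4IKK1, 10 lists had 1 library far from the other 4 (Dixon's ratio over 0.71, which chance passes in about 1 of 20 groups). In 7 of them this was replicate 3, the library with the most TCR counts of its group. Regulatory T cell genes summed to 177 CPM there and to 21.2 to 65.1 CPM in the other libraries, and cytotoxic, NK and CD8 genes to 294 CPM against 5.86 to 86.2 CPM. The non-canonical NFκB list was at 864 CPM against 106 to 289.6 CPM, and the TNF superfamily at 1002 CPM against 190.0 to 383 CPM. These lists are not separate here, since Ltb belongs to both and made up most of both sums in replicate 3. Dixon's ratio was not taken without Ltb. Interferon-stimulated genes were at 355 CPM against 73.4 to 144 CPM, S100, annexin and galectin genes at 671 CPM against 56.7 to 142 CPM, and cell cycle genes at 316 CPM against 162 to 202 CPM. In the other 3 lists it was replicate 1, the library with the fewest TCR counts. Antioxidant and iron storage genes summed to 16057 CPM there and to 12389 to 13244 CPM in the others, nuclear respiratory chain genes to 45354 CPM against 31612 to 34833 CPM, and mitochondrially encoded genes to 29084 CPM against 20378 to 22808 CPM. What sets these libraries apart was not tested.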

How the results depend on the processing

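The absence of edgeR calls depended on the processing. Against 0 genes called lower, DESeq2 called 501, RLE factors 1, upper-quartile factors 1, a filter of at least 1 count in any library 48, at least 10 counts in every library 156, all 11 libraries in the fit 129 and leaving out CD4IKK1 replicates 1 and 2 together 36. Leaving out single libraries gave 0 to 23 (2 without CD4cre replicate 3, 4 without CD4IKK1 replicate 1, 8 without CD4IKK1 replicate 3 and 23 without CD4IKK1 replicate 4). Against 0 called higher, DESeq2 called 46, at least 10 counts in every library 3, and single libraries left out gave 0 to 1. Same-numbered libraries did not deviate together (correlations −0.08, 0.03 and −0.00), so that the replicate block is only a shared number, and with it 3 genes were called lower. Genes lower without overlap in CPM numbered 1456 to 2261 with 1 library left out (2261 without CD4cre replicate 3), and those higher 1113 to 1658 (1510 without CD4cre replicate 2, 1658 without CD4cre replicate 3) and 1440 without CD4IKK1 replicates 1 and 2. Per TCR count the 4 lower genes became 0 with at least 10 counts in every library, 0 with a prior count of 2, 121 without CD4IKK1 replicates 1 and 2, and 5 to 41 with 1 library left out (7 without CD4IKK1 replicate 2, 8 without CD4IKK1 replicate 5, 9 without CD4cre replicate 3, 12 without CD4cre replicate 2 and 41 without CD4IKK1 replicate 1). The higher genes became 8341 with at least 1 count in any library and 5348 to 11106 with 1 library left out (9789 without CD4cre replicate 3, 11106 without CD4IKK1 replicate 3). The cause was not tested. The difference in TCR CPM lay between −4.21 and −2.23 with 1 library left out.

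Directions turned for 11 of the named genes, none of which was called by edgeR. With the TCR CPM as a covariate the log2 fold change was 0.0693 for Chuk, 0.18 for Ltb, 0.35 for Relb, 0.35 for Trac and 0.29 for Trbc1. Of the 75 named genes with a log2 fold change under −1, 56 came nearer to 0 by over 1.5-fold under this covariate (median of the 75 −1.24, against −2.49 without it), among them Ifng at −0.0667, Cd4 at −0.0396, Cd3e at −0.28, Cd40lg at −0.32, Lck at −0.40 and Klf2 at −0.53. Relb was at 0.0940 without CD4IKK1 replicates 1 and 2. With upper-quartile factors Egr2 was at 0.0434, H2-DMa at 0.0340, Hsp90aa1 at 0.0371 and Traf3 at 0.11, and with the replicate block H2-DMa at 0.0804, Hsp90aa1 at 0.0164 and Traf3 at 0.55. With 1 library left out, values ran from −0.29 to 0.31 for Chuk, −0.86 to 0.23 for Egr2, −0.000518 to 1.01 for Fkbp5, −0.15 to 0.0266 for H2-DMa, −0.14 to 0.0095 for Hsp90aa1, −0.14 to 0.76 for Ikbkg, −0.92 to 0.20 for Relb and −0.50 to 0.67 for Traf3.

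Depth limits low genes, for which 3 counts equal up to 0.197 CPM, and the 41 TCR counts of CD4IKK1 replicate 1 limit each ratio there.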
